A study of Mus musculus with 12 samples.

Results

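The genes described here encode the granins and the enzymes that process prohormones, the cargo and the machinery of the regulated secretory pathway. The set holds 8 genes: the 5 granins Chga, Chgb, Scg2, Scg3 and Vgf, and the 3 enzymes Pcsk1, Pcsk2 and Cpe. A member was represented by each probe set that the platform annotation assigns to its symbol alone, whatever its level. This gave 8 probe sets for 7 of the 8 genes, out of 45037 probe sets tested and 18193 genes measured. Pcsk2 has no probe set under its symbol in the annotation used and was not analysed here, so all 5 granins and 2 of the 3 enzymes were measured. Cpe has 2 probe sets, and the other 6 genes have 1 each.

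The samples were geniculate ganglia, which hold the cell bodies of taste neurons, from mouse embryos at embryonic day 14.5. There were 4 groups of 3 Affymetrix arrays: BDNF knockout and BDNF wild type, both on the C57BL/6J background, and NT4 knockout and NT4 wild type, both on the 129 background. The series asked whether loss of the neurotrophins BDNF and NT4, which share the receptor encoded by Ntrk2, changes gene expression in different ways. The labels name no allele, and no litter or number of embryos per sample. A difference between the lines is therefore one of strain, of colony or of both, which cannot be told apart. The labels call the 3 arrays of a group biological replicates, and p-values measure the spread between these samples.

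Neurons and endocrine cells store peptides in dense-core granules, which form at the trans-Golgi network and release their content when calcium rises. Granins are acidic proteins that aggregate in the Golgi and are packed into these granules, where several of them are also cut into peptides. The convertases encoded by Pcsk1 and Pcsk2 cut prohormones after pairs of basic residues, and carboxypeptidase E, encoded by Cpe, trims those residues from the new ends. In sensory neurons BDNF is itself stored in and released from dense-core granules.

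Promoter sequence is shown because several granin genes are known targets of the cAMP response element (CRE), a site bound by CREB, the transcription factor through which neurotrophins and calcium act on many neuronal genes. RefSeq sequence (GRCm38.p6) upstream of the annotated gene start was given for 6 of the 8 members. Vgf and Cpe had no entry and were not searched. The 250 bases before each start were searched on both strands for the full palindrome TGACGTCA and for TGACG, which is contained in it. The full CRE was found in 3 of the 6 members, Chgb, Scg2 and Pcsk1, and in 1.55% of the 32851 promoters of the table. The shorter TGACG was found in 6 of 6 members and in 17.8% of all promoters, and in Chga, Scg3 and Pcsk2 it was the only form found. The 100 bases before the start of the 5 measured members with an entry are printed below, 5′ to 3′ on the strand of the gene, with the CRE or, where there is none, TGACG in capitals. They lie at chr2:132781542-132781641 on the plus strand (Chgb), chr1:79440027-79440126 on the minus strand (Scg2), chr13:75089757-75089856 on the plus strand (Pcsk1), chr12:102554841-102554940 on the plus strand (Chga) and chr9:75684057-75684156 on the minus strand (Scg3).
Chgb: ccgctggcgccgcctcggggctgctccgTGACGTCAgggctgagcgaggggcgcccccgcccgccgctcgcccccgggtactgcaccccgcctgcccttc
Scg2: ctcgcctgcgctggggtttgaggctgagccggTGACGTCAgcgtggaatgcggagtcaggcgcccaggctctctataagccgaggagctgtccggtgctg
Pcsk1: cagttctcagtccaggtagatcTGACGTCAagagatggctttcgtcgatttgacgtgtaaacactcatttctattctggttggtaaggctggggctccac
Chga: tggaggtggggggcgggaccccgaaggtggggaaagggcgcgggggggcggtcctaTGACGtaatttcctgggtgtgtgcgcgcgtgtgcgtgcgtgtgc
Scg3: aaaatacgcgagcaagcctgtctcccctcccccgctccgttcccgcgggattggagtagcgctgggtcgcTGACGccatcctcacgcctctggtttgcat

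The CRE began 72 bases before the start in Chgb, 68 bases before it in Scg2 and 78 bases before it in Pcsk1. TGACG began 44 bases before the start in Chga and 30 bases before it in Scg3. Pcsk1 carries a second TGACG, outside its CRE, 50 bases before the start. The GC box GGGCGG, read on both strands, was found in the promoters of Chga and Chgb among these 5 genes and in 32.7% of all promoters. These matches are letters in a window, and no measurement of binding at them was made in this series.

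**Figure D1:**
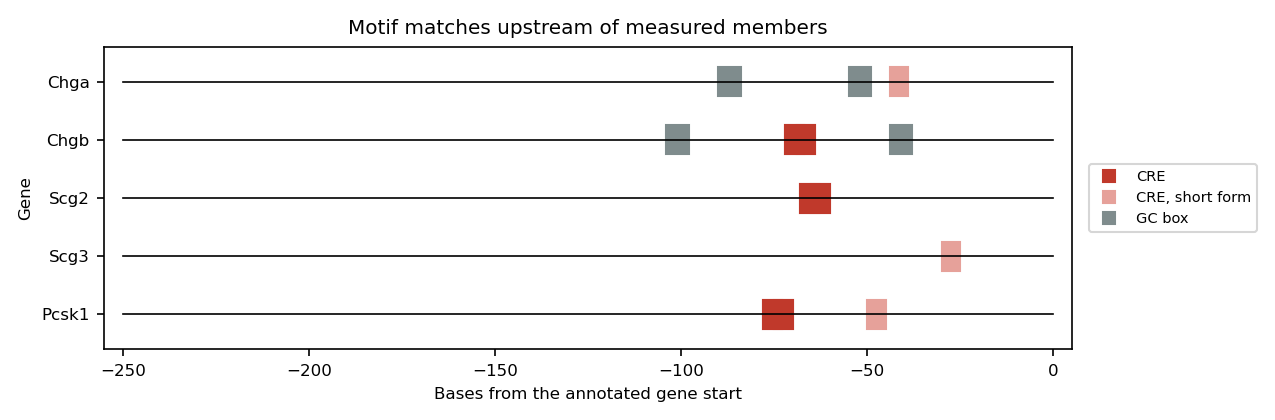
Positions of motif matches in the 250 bases before the annotated start of the 5 measured members with a promoter entry. The x axis is the distance in bases from the gene start and each row is 1 gene. Dark red boxes are full CREs, light red boxes are its short form TGACG outside a full CRE and grey boxes are GC boxes. The full CREs of Chgb, Scg2 and Pcsk1 begin 68 to 78 bases before the start.

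The arrays were alike in overall level, with medians of 168 to 201, and replicates correlated on the log2 scale with r between 0.967 and 0.985. Bdnf checked the BDNF labels: its probe set 1422168_a_at read 25.2, 26.9 and 23.3 in BDNF knockout ganglia and 243, 169 and 288 in BDNF wild-type ganglia. The second Bdnf probe set, 1422169_a_at, averaged 315 in BDNF knockout and 262 in BDNF wild type (adjusted p = 0.867, limma), and its position relative to the deleted part is not known here. Ntf5, the gene for NT4, could not check the NT4 labels, since its probe set 1440353_at averaged 38.6 ± 3.29 in NT4 knockout and 41.1 ± 6.56 in NT4 wild type (SD, n = 3 each). All 13 listed pan-neuronal markers were measured, and P2rx3, a marker of visceral sensory neurons, had a mean of 7905 to 8183 in the 4 groups. Other markers of these neurons were not so even, and of the 7 measured 1 was higher and 1 lower past the threshold in NT4 wild type than in BDNF wild type. Tlx3 averaged 297 and 60.6 there (adjusted p = 4.69e-06, limma), and Phox2a 418 and 1223 (adjusted p = 7.33e-06, limma). The second wild-type array of each line differed from the rest in sex-linked genes: log2 Xist minus the mean log2 of 3 Y-linked genes was 8.09 (BDNF line) and 7.92 (NT4 line) there, and between 2.79 and 5.09 on the 10 remaining arrays. Results that change without these arrays are given with and without them.

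Loss of BDNF left every measured member short of the threshold. With limma across all probe sets, 0 of the 8 member probe sets had an adjusted p under 0.05, where the background was 0.0178% of all probe sets tested. At an unadjusted p under 0.05 there were 2, Vgf and the dimmer Cpe probe set, against 6.72% of all probe sets. The median log2 change of the 7 genes was -0.05, beside -0.02 over all genes. Granin by granin the values were not uniform: Vgf, Chga and Scg3 had lower means in BDNF knockout, and Scg2 and Chgb had higher means.

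Vgf encodes a granin-like precursor of several secreted peptides and was first found in a rat cell line as a transcript induced by nerve growth factor. Its intensity was 1874, 1281 and 1542 in BDNF knockout ganglia and 2454, 1912 and 2069 in BDNF wild-type ganglia. Every BDNF knockout array lay below every BDNF wild-type array, a pattern that 6.55% of all probe sets had in this direction. The log2 change was -0.46 (SE 0.18, 95% interval -0.86 to -0.07), a fold of 0.725, with an unadjusted p of 0.0254 and an adjusted p of 0.655 (limma). An exact two-sided permutation test gave p = 0.1, the smallest that 3 arrays against 3 allow. Over 19 alternative settings the change ranged from -0.60 to -0.33 on the log2 scale and never passed the threshold. Since the groups did not overlap, leaving out arrays could not turn its sign.

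Scg2 encodes secretogranin II, the precursor of the neuropeptide secretoneurin. It read 1489, 1414 and 1629 in BDNF knockout ganglia and 1238, 1321 and 1264 in BDNF wild-type ganglia. It was the only member whose knockout arrays all lay above the wild-type arrays, a pattern that 4.05% of all probe sets had. The log2 change was 0.24 (SE 0.17, 95% interval -0.14 to 0.63, adjusted p = 0.899, limma).

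Scg3 encodes secretogranin III, which binds chromogranin A and cholesterol-rich granule membrane. It read 3208, 2917 and 3192 in BDNF knockout ganglia and 3309, 3481 and 3593 in BDNF wild-type ganglia, again without overlap. The log2 change was -0.16 (SE 0.11, 95% interval -0.39 to 0.08, adjusted p = 0.884, limma), and the interval included no change. So 2 of the 7 genes lay lower without overlap, beside 6.55% of all probe sets, and 1 lay higher without overlap, beside 4.05%. The summed intensity of somatosensory neuron markers was lower beside them, with 6 of 8 listed markers measured. It was 5398, 6708 and 7206 in BDNF knockout and 8198, 8462 and 8796 in BDNF wild type, without overlap. None of the 6 passed or was at 0, and 4 had a negative sign. Among these were the 2 brightest, Pou4f1 at -0.47 (adjusted p = 0.566, limma) and Avil at -0.48 (adjusted p = 0.496, limma), while Runx3 was at -0.01. The 2 positive ones were Trpv1 at 1.93 (adjusted p = 0.423, limma) and Scn10a at 0.09. Trpv1 averaged 76.0 in BDNF knockout and 17.6 in BDNF wild type, so the markers did not move as a set. In the NT4 line the sums overlapped, at 5134 to 6191 in NT4 knockout and 4959 to 5730 in NT4 wild type. The part of these markers in the values of Vgf and Scg3 was not tested.

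Chga encodes chromogranin A, a calcium-binding granule protein and the precursor of peptides such as pancreastatin and catestatin. Its intensity was 1725, 1523 and 1456 in BDNF knockout ganglia and 1792, 1662 and 1805 in BDNF wild-type ganglia. The groups overlapped, since the highest knockout array lay above the lowest wild-type array, and the log2 change was -0.16 (SE 0.14, adjusted p = 0.932, limma). Chgb, which encodes chromogranin B, read 4880, 4676 and 4954 in BDNF knockout ganglia and 4478, 4102 and 5106 in BDNF wild-type ganglia. All 3 knockout values fell inside the wild-type range, and the log2 change was 0.09 (SE 0.14, adjusted p = 0.988, limma).

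Of the enzymes, Pcsk1, the convertase that makes the early cuts in prohormones, read 401, 450 and 401 in BDNF knockout ganglia and 464, 290 and 532 in BDNF wild-type ganglia. The knockout values were tight and lay within the wide wild-type range, with a log2 change of 0.01 and a 95% interval of -0.54 to 0.55 (adjusted p = 0.999, limma). Cpe (1415949_at) was the steadiest member, at 7748, 7804 and 7452 in BDNF knockout ganglia and 7682, 7766 and 8314 in BDNF wild-type ganglia. Its log2 change was -0.05 (SE 0.09, 95% interval -0.25 to 0.16, adjusted p = 0.995, limma). The second Cpe probe set, 1439437_x_at, read only 7.48, 12.6 and 14.4 in BDNF knockout and 20.7, 13.7 and 20.1 in BDNF wild type. That probe set was in the lowest 3.18% of mean log2 values, its log2 change was -0.69 (SE 0.29, adjusted p = 0.718, limma), and it did not show the steadiness of the brighter probe set of the same gene.

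**Figure D2:**
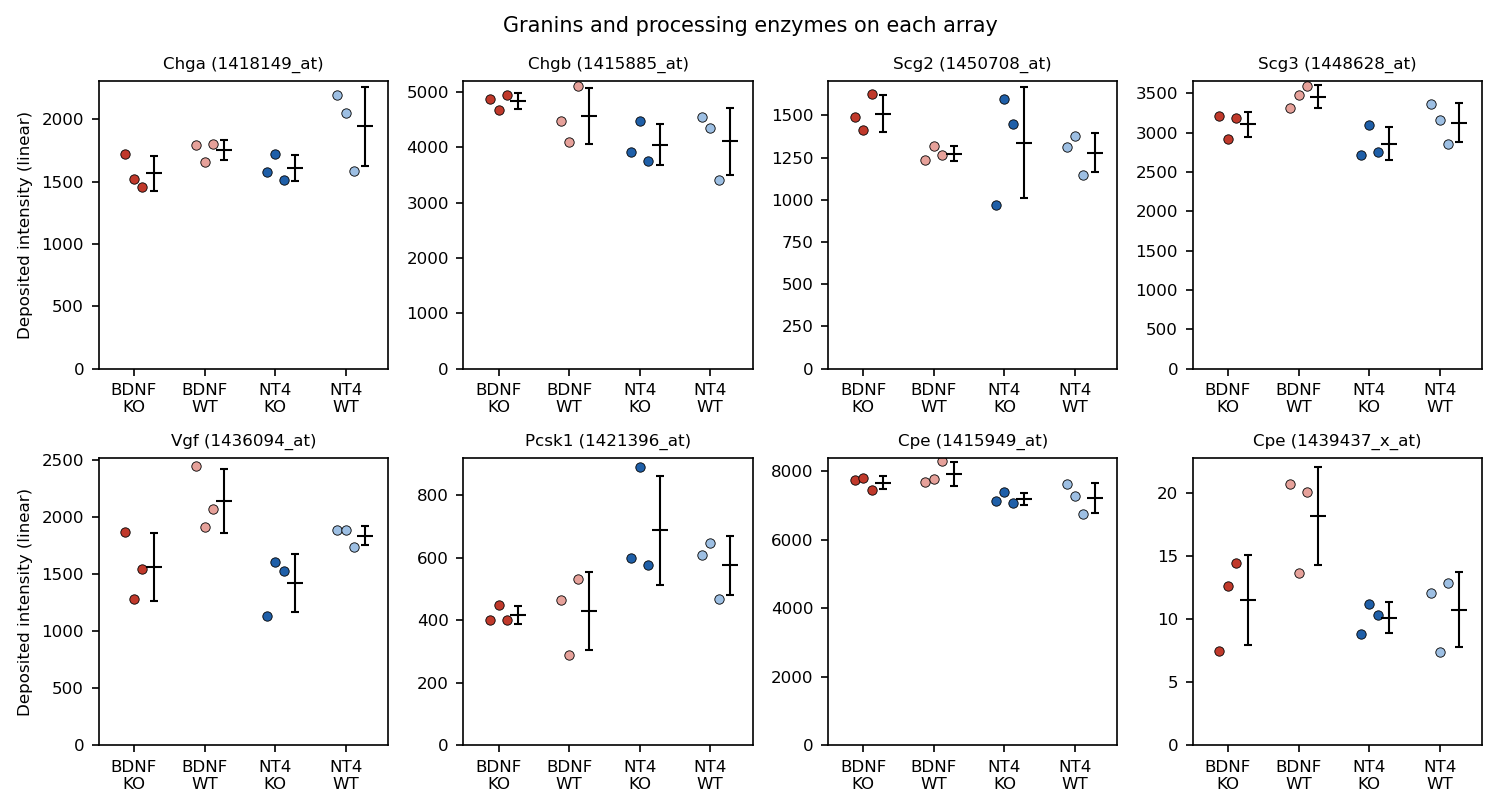
Deposited linear intensity of each member probe set on every array, in 4 groups of 3 arrays (BDNF knockout, BDNF wild type, NT4 knockout, NT4 wild type). Each circle is 1 array, the horizontal bar is the group mean and the error bar is the SD, and each y axis starts at 0 and belongs to its own probe set. Vgf is lower on each knockout array than on each wild-type array of its own line, while Cpe 1415949_at lies between 6769 and 8314 on all 12 arrays.

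Loss of NT4 gave the same count. Again 0 of 8 member probe sets passed the threshold, where 0.00444% of all probe sets did. None had an unadjusted p under 0.05, against 5.62% of all probe sets. The median log2 change of the 7 genes was -0.01, beside 0.03 over all genes, and 5 of the 7 had a negative sign. With every array centred on its median, the median over all probe sets moved to -0.07 for this comparison, against 0.05 as deposited. On that scale the members' median was -0.13, and Scg2 turned from slightly positive to slightly negative.

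Vgf read 1130, 1607 and 1532 in NT4 knockout ganglia and 1886, 1892 and 1741 in NT4 wild-type ganglia. As in the BDNF line, the knockout arrays all lay below the wild-type arrays, a pattern that 4.29% of all probe sets had in the NT4 line, while 7.82% had the opposite one. The log2 change was -0.39 (SE 0.18, 95% interval -0.78 to 0.01), a fold of 0.765, with an unadjusted p of 0.0538 and an adjusted p of 0.892 (limma). The exact two-sided permutation p was again 0.1. Vgf was the only member without overlap in this line.

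Chga read 1582, 1725 and 1518 in NT4 knockout ganglia and 2195, 2054 and 1588 in NT4 wild-type ganglia. The overlap came from NT4 wild-type replicate 3, which lay among the knockout values, and the log2 change was -0.26 (SE 0.14, 95% interval -0.57 to 0.04, adjusted p = 0.9, limma). Scg3 read 2722, 3101 and 2758 in NT4 knockout ganglia and 3361, 3166 and 2859 in NT4 wild-type ganglia, with a log2 change of -0.13 (adjusted p = 0.951, limma). Here too only the third wild-type array fell inside the range of the knockout arrays.

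Scg2 was the most scattered granin in NT4 knockout ganglia, at 970, 1596 and 1450, against 1311, 1379 and 1149 in NT4 wild-type ganglia. The knockout arrays spanned the whole wild-type range, and the log2 change was 0.04 (95% interval -0.35 to 0.42, adjusted p = 0.989, limma). Chgb read 3921, 4474 and 3755 in NT4 knockout ganglia and 4555, 4356 and 3411 in NT4 wild-type ganglia, with a log2 change of -0.01 (95% interval -0.32 to 0.29, adjusted p = 0.994, limma). For this gene the knockout values all fell within the wild-type range.

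Pcsk1 read 599, 890 and 577 in NT4 knockout ganglia and 611, 648 and 467 in NT4 wild-type ganglia. One knockout array was high and the other two lay within the wild-type range, so the change of 0.24 on the log2 scale carried a wide 95% interval, -0.30 to 0.78 (adjusted p = 0.964, limma). Cpe (1415949_at) read 7129, 7390 and 7077 in NT4 knockout ganglia and 7618, 7292 and 6769 in NT4 wild-type ganglia. Its log2 change rounded to -0.00, with a 95% interval of -0.21 to 0.20 (adjusted p = 0.998, limma). The dim Cpe probe set averaged 10.1 ± 1.21 in NT4 knockout and 10.7 ± 2.95 in NT4 wild type (SD, n = 3 each).

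**Figure D3:**
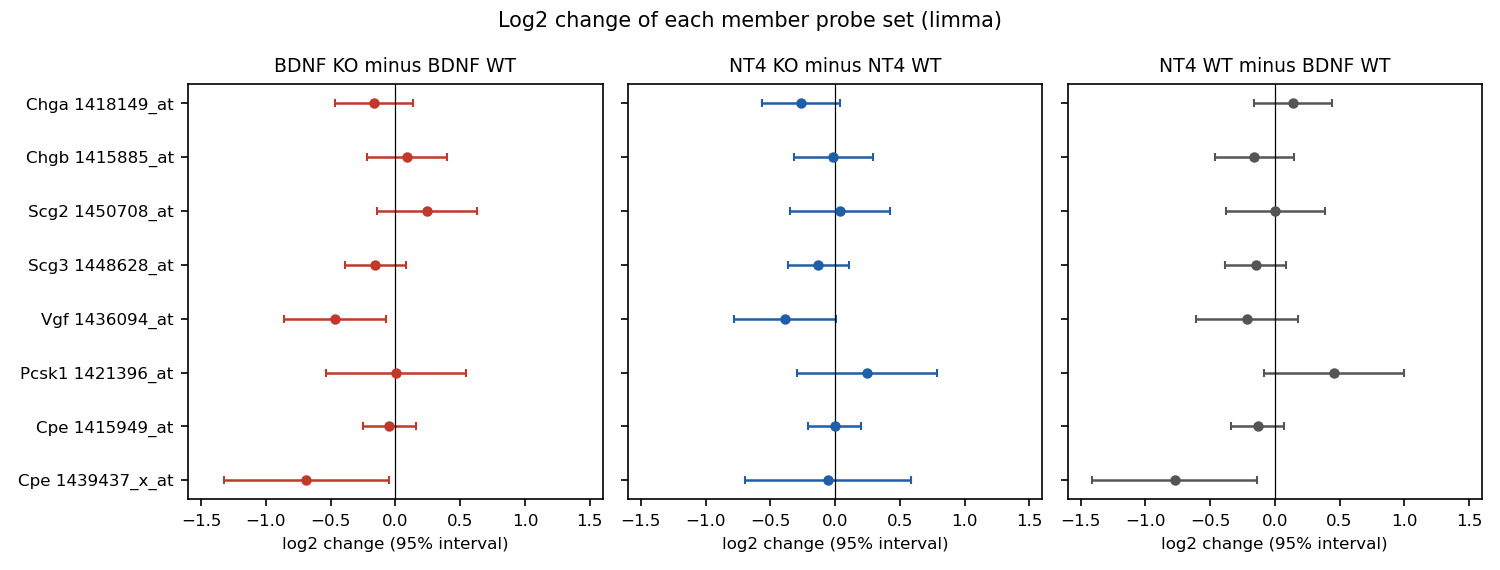
Log2 change of each member probe set with its 95% interval from limma, for BDNF knockout minus BDNF wild type (left), NT4 knockout minus NT4 wild type (middle) and NT4 wild type minus BDNF wild type (right). The vertical line marks no change. Vgf is at -0.46 in the BDNF line and -0.39 in the NT4 line, and the interval is narrowest for Cpe 1415949_at and widest for Cpe 1439437_x_at.

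On their brightest probe sets the members had a median SE of a log2 change of 0.14 (0.09 to 0.24), against a median of 0.20 over all probe sets. Pcsk1 (SE 0.24) and the dim Cpe probe set (SE 0.29) lay above that overall median. The 95% intervals bounded the BDNF change of Chga, Chgb, Scg3 and Cpe 1415949_at within -0.47 and 0.40 on the log2 scale. For Pcsk1 a change of 0.54 in either direction lay within the interval.

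Vgf was lower without overlap in both lines, which 155 of the 45037 probe sets were (0.344%). Because its values had been seen, the mean of both knockout effects was added afterwards. It was -0.43 on the log2 scale for Vgf (SE 0.13, 95% interval -0.70 to -0.15, fold 0.745, unadjusted p = 0.00667). The adjusted p was 0.646 (limma), so Vgf did not pass here either, and no other member did, where 0.00888% of all probe sets did. Chga stood next, at -0.21 (unadjusted p = 0.0503, adjusted p = 0.776, limma).

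The BDNF effect was also set against the NT4 effect directly. Again 0 of 8 member probe sets passed, where 0.0111% of all probe sets did, and none had an unadjusted p under 0.05, against 5.84% of all probe sets. The difference for Vgf was -0.08 on the log2 scale (SE 0.25, 95% interval -0.63 to 0.48, adjusted p = 0.988, limma). For Scg2 it was 0.21 (95% interval -0.34 to 0.75) and for Pcsk1 -0.24 (95% interval -1.0 to 0.53). These intervals leave room for unequal effects of the size seen within either line, so the test did not show that the knockouts acted alike.

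The heat map of values relative to the wild type of the same line shows how arrays within a group differed. NT4 wild-type replicate 3 was the lowest of its group for 7 of 7 genes, and NT4 knockout replicate 2 was the highest of its group for 7 of 7. Over the 7 genes the summed intensity was 18053, 20782 and 18666 in NT4 knockout ganglia and 21536, 20787 and 17984 in NT4 wild-type ganglia. In the BDNF line the sums were 21326, 20066 and 20626 in knockout and 21417, 20533 and 22683 in wild type, which overlapped.

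Those arrays also differed in other markers. The summed intensity of the 13 pan-neuronal markers was 103359, 115356 and 113209 in NT4 knockout and 117074, 115623 and 108398 in NT4 wild type, so the third wild-type array was again the lowest of its group. The sum of 7 connective tissue markers, all measured, was 31750, 22508 and 24531 in NT4 knockout and 17612, 16843 and 29029 in NT4 wild type, where the third array was the highest. For the 6 skeletal muscle markers NT4 wild-type replicate 3 read 2571 in sum, against 614 and 722 on the others of its group. Their part in the values of the members was not tested. Without that array the members' median log2 change was -0.14 for NT4 knockout against NT4 wild type, and 0 members passed the threshold. In whole ganglia, fewer cells of a type and less RNA per cell cannot be told apart.

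**Figure D4:**
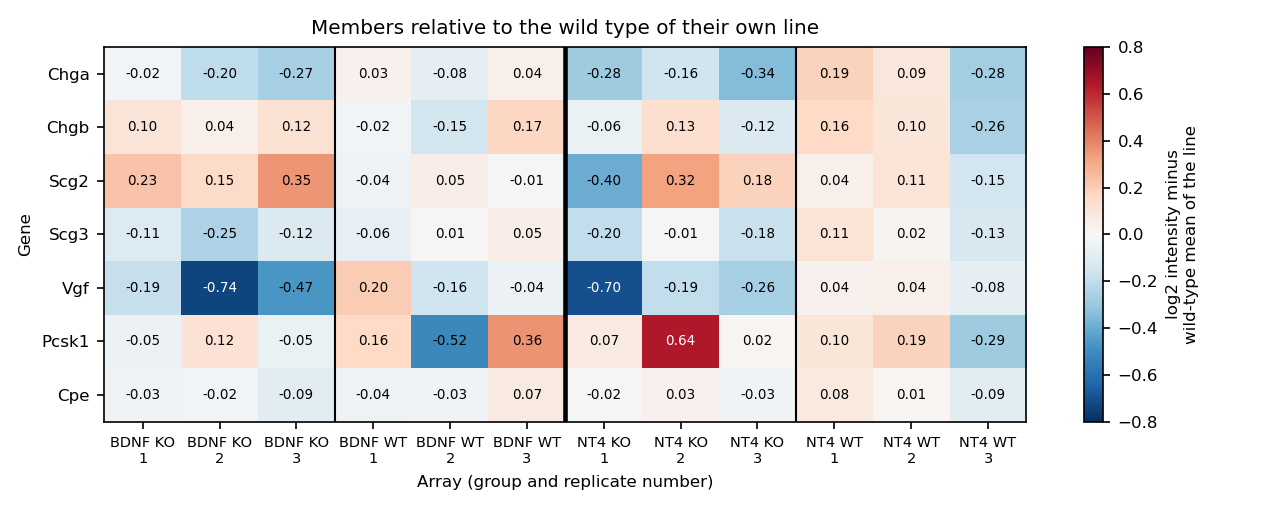
Log2 intensity of each of the 7 genes (brightest probe set) on each array, minus the wild-type mean of the same line, with arrays in columns and genes in rows. Blue is below and red above the wild-type mean, and the number in each cell is the difference. The Vgf row is negative on all 6 knockout arrays, from -0.74 to -0.19, and the column of NT4 wild-type replicate 3 is negative for all 7 genes.

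Group means in order of level mostly did not separate from their neighbours. Chga was highest in NT4 wild type (1946 ± 317), followed by BDNF wild type (1753 ± 79.3), NT4 knockout (1608 ± 106) and BDNF knockout (1568 ± 140), with overlap between all neighbours (SD, n = 3 each). Scg3 was highest in BDNF wild type (3461 ± 143), followed by NT4 wild type (3129 ± 253), BDNF knockout (3106 ± 163) and NT4 knockout (2860 ± 209). Vgf had the same order, with BDNF wild type at 2145 ± 279, NT4 wild type at 1840 ± 85.6, BDNF knockout at 1566 ± 297 and NT4 knockout at 1423 ± 256. For Chga, Scg3 and Vgf alike, both wild types thus stood above both knockouts. The BDNF wild-type arrays of Vgf all lay above its NT4 wild-type arrays, the only pair of neighbours without overlap among the 8 probe sets.

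Chgb was highest in BDNF knockout (4837 ± 144), followed by BDNF wild type (4562 ± 507), NT4 wild type (4107 ± 611) and NT4 knockout (4050 ± 377). Scg2 was highest in BDNF knockout (1511 ± 109), followed by NT4 knockout (1339 ± 328), NT4 wild type (1280 ± 118) and BDNF wild type (1274 ± 42.4). Pcsk1 was highest in NT4 knockout (689 ± 175), followed by NT4 wild type (576 ± 95.5), BDNF wild type (429 ± 125) and BDNF knockout (417 ± 28.5), so the NT4 line stood above the BDNF line. Cpe 1415949_at had the opposite order of lines, with BDNF wild type (7921 ± 343) and BDNF knockout (7668 ± 189) above NT4 wild type (7226 ± 428) and NT4 knockout (7199 ± 167).

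Between the wild types, which differ in strain and colony, 13.9% of all probe sets passed the threshold and 0 of the 8 member probe sets did. At an unadjusted p under 0.05 there was 1, the dim Cpe probe set, against 24.9% of all probe sets. The log2 difference, NT4 wild type minus BDNF wild type, was 0.46 for Pcsk1 (SE 0.24, 95% interval -0.08 to 1.0, adjusted p = 0.29, limma). Chga was at 0.14, Scg2 at 0.00, Cpe 1415949_at at -0.13, Scg3 at -0.15, Chgb at -0.16 and Vgf at -0.21, with adjusted p from 0.438 for Cpe to 0.995 for Scg2 (limma). The NT4 wild-type arrays lay below the BDNF wild-type arrays without overlap for Vgf and both Cpe probe sets, as they did for 19.3% of all probe sets.

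After the values of Pcsk1 had been seen, both groups of the NT4 line were compared with both groups of the BDNF line. Pcsk1 was the only member to pass, and it was higher in the NT4 line, with a log2 difference of 0.58 (SE 0.17, 95% interval 0.19 to 0.96, fold 1.49, adjusted p = 0.0345, limma). The background in this comparison was 23.1% of all probe sets, so 1 of 8 member probe sets is no more than that share. The call was kept in 5 and lost in 7 of the 12 fits that left out 1 array, with adjusted p from 0.0214 to 0.0816. It was also lost without both arrays that stood apart in sex-linked genes (log2 0.40, adjusted p = 0.115, limma) and with arrays centred on their medians (log2 0.49, adjusted p = 0.0822, limma).

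Other genes of the pathway were read from a list of 44 genes, of which 43 were measured. In BDNF knockout ganglia 1 of these rose and 0 fell, 19 had a positive and 24 a negative sign, and the median log2 change was -0.02. In NT4 knockout ganglia 0 of 43 passed the threshold, 17 were positive and 26 negative, and the median was -0.04. At an unadjusted p under 0.05 the counts were 3 of 43 for BDNF, beside 6.72% of all probe sets, and 2 of 43 for NT4, beside 5.62%.

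The gene that rose was Scg5 (1423150_at), whose product binds the convertase encoded by Pcsk2 and helps it become active. It read 4436, 4258 and 4631 in BDNF knockout ganglia and 1774, 1502 and 1861 in BDNF wild-type ganglia, a log2 change of 1.38 (SE 0.15, adjusted p = 0.0196, limma). In the NT4 line it read 1598, 1924 and 1357 in knockout and 1973, 1968 and 1598 in wild type, so the BDNF knockout arrays stood above all 9 others. The call was kept in 3 and lost in 9 of the 12 fits that left out 1 array, with adjusted p from 0.0182 to 0.103 and a log2 change of 1.29 to 1.44. It was also lost with centred arrays (adjusted p = 0.0561, limma), with the replicate number as a block (0.126), with only the 6 arrays compared (0.244) and without both arrays that stood apart in sex-linked genes (0.238). The difference from the NT4 effect was 1.57 (SE 0.21, adjusted p = 0.139, limma). Scg5 lies on chromosome 2, as Bdnf does, 22 measured genes away in the GRCm38.p6 order. The member Chgb, on the same chromosome, lies 261 measured genes from Bdnf.

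**Figure D5:**
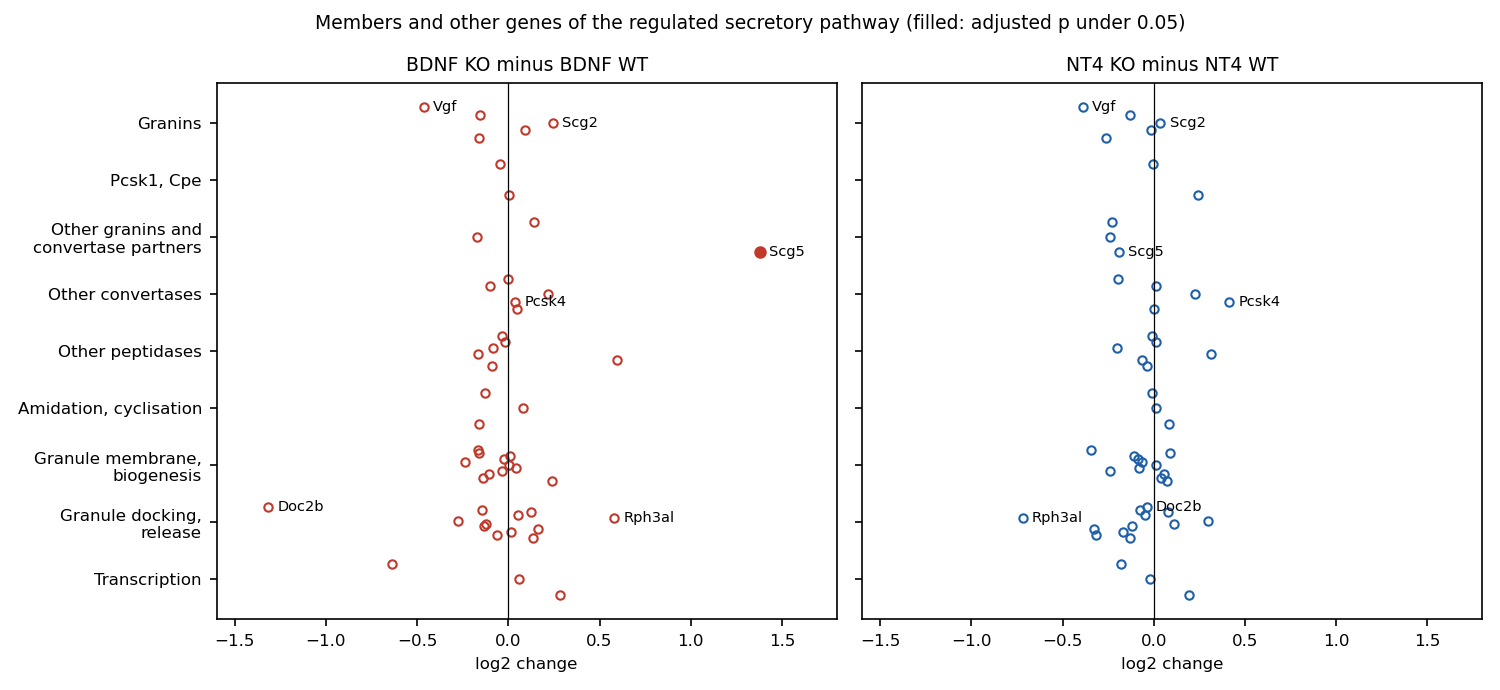
Log2 change of the 7 members and of the 43 other measured pathway genes, grouped by role, for BDNF knockout minus BDNF wild type (left) and NT4 knockout minus NT4 wild type (right). Each circle is the brightest probe set of 1 gene, and a filled circle has an adjusted p under 0.05. Scg5, at 1.38 in the BDNF line, is the only filled circle.

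The other genes grouped with Scg5 showed no such rise. Pcsk1n, which encodes the inhibitor of the Pcsk1 convertase, averaged 1330 in BDNF knockout and 1492 in BDNF wild type, with a log2 change of -0.17 (adjusted p = 0.959, limma). Resp18, an endocrine granule protein, was at 0.14 (adjusted p = 0.952, limma). In the NT4 line the corresponding changes were -0.24 for Pcsk1n and -0.23 for Resp18 (adjusted p = 0.945 and 0.92, limma).

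Among the 5 other convertases the log2 change lay between -0.10 and 0.22 in BDNF knockout ganglia and between -0.20 and 0.41 in NT4 knockout ganglia, and none passed. The highest NT4 value was that of Pcsk4, a convertase known from germ cells, with an unadjusted p of 0.00699 and an adjusted p of 0.838 (limma). Furin, the convertase of the constitutive pathway, was at 0.05 in the BDNF line and 0.00 in the NT4 line. Pcsk7 (1417180_at), a widely expressed convertase, was the 1 of 43 measured pathway genes that passed between the wild types, beside 13.9% of all probe sets. It read 343, 324 and 507 in NT4 wild type and 108, 118 and 156 in BDNF wild type, a log2 difference of 1.61 (SE 0.23, adjusted p = 0.000705, limma). This call was kept in 12 of 12 fits that left out 1 array. The pathway count was 2 with an intensity trend and 3 with only the arrays compared.

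None of the other peptidase, amidating or membrane genes passed in either knockout. Pam, the enzyme that amidates peptide ends, was at -0.16 in BDNF knockout (adjusted p = 0.865, limma) and 0.09 in NT4 knockout (adjusted p = 0.969, limma). The 6 other peptidase genes lay between -0.16 and 0.60 in BDNF knockout and between -0.20 and 0.31 in NT4 knockout. The highest values were those of the carboxypeptidase genes Cpm in the BDNF line (adjusted p = 0.931, limma) and Cpz in the NT4 line (adjusted p = 0.932, limma). The 11 genes of granule membrane and biogenesis lay between -0.24 and 0.24 in BDNF knockout and between -0.34 and 0.09 in NT4 knockout, and 0 passed.

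The genes of granule docking and release held the lowest unadjusted p-values after Scg5 in the BDNF line. Rph3al (1444409_at), a Rab effector in granule exocytosis, read 339, 372 and 386 in BDNF knockout and 191, 296 and 258 in BDNF wild type. In the NT4 line the order was turned, with 185, 232 and 167 in knockout and 352, 259 and 350 in wild type. Neither change passed, at 0.58 (SE 0.19, adjusted p = 0.589, limma) in the BDNF line and -0.72 (SE 0.19, adjusted p = 0.803, limma) in the NT4 line. Its dimmer probe set 1431695_at was at 0.05 and -0.00. Doc2b, a calcium sensor of exocytosis, was at -1.32 in the BDNF line on its brighter probe set (1420666_at, adjusted p = 0.706, limma) and at -0.09 on the other, 1420667_at.

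The factors that act on granin genes did not pass either. Creb1, which encodes CREB, averaged 1935 in BDNF knockout and 1841 in BDNF wild type, with a log2 change of 0.06 (adjusted p = 0.998, limma). Rest, the repressor of neuronal genes in other cells, was at 0.28 in BDNF knockout (adjusted p = 0.94, limma) and 0.19 in NT4 knockout (adjusted p = 0.973, limma). Insm1, a zinc-finger factor of neuroendocrine cells, was at -0.64 with an adjusted p of 0.876 in the BDNF line (limma).

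The peptide precursors that these enzymes cut were followed as a list of 19 genes, 18 of them measured. In each knockout 0 of 18 passed, with a median log2 change of 0.03 in BDNF knockout and 0.15 in NT4 knockout. Sst, the somatostatin precursor, averaged 1127 in BDNF knockout and 700.4 in BDNF wild type. It came first by unadjusted p in that line, with a log2 change of 0.67 and an adjusted p of 0.496 (limma). In the NT4 line it was Cort, the cortistatin precursor, with 231 in NT4 knockout and 139 in NT4 wild type (log2 0.71, adjusted p = 0.524, limma). Between the wild types 5 of the 18 passed, 3 higher and 2 lower, beside 13.9% of all probe sets. Pdyn, Sst and Nmb were higher in NT4 wild type, by 1.35, 0.77 and 0.72 on the log2 scale, and Npy and Calcb were lower, at -0.75 and -0.67 (adjusted p between 0.000138 and 0.0325, limma).

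For each knockout the authors also gave a selected list, and no member probe set is in either. The listed probe sets share a linear fold of 1.2 or more in size, a gap between means of 50 or more and an unadjusted p below 0.05. Recomputed from the value table, these conditions were met by 0 of the 8 member probe sets in each line, beside 1.48% of all probe sets in the BDNF line and 1.49% in the NT4 line. Vgf met the first and second of these conditions in both lines but not the third, with a linear fold of 1.37 in size for BDNF and 1.29 for NT4. The same held for Chga in the NT4 line, with a linear fold of 1.21 in size. Scg2 in the BDNF line fell just short on the fold, at 1.19 in size. Scg3 in that line also missed only the fold, at 1.11 in size. The authors' deposited table for BDNF gives Scg5 a signed fold of 2.59, Rph3al 1.47, Penk 1.3 and Rab27b -1.32. The Rab27b value is from 1417214_at. On the brightest probe set of that gene, 1417215_at, the log2 change was -0.12 (adjusted p = 0.997, limma). The authors' deposited table for NT4 gives Rph3al a signed fold of -1.64, Tac1 -1.27 and Gal 1.46.

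Members varied together to different degrees. Over the 12 arrays, with log2 values centred within each line, the highest Pearson correlation between 2 members was 0.83 for Chga and Scg3, followed by 0.75 for Chgb and Pcsk1 and 0.74 for Scg3 and Vgf. The lowest was -0.01, for Chga and Scg2. These arrays share their labelling and scaling, and the values are a description over 12 arrays with no test. On the same measure, the gene most like Vgf among 11292 candidates was Nicn1 (r = 0.93), followed by Ndufv3 (0.92) and Syp (0.90), the gene for the vesicle protein synaptophysin. For Chga they were Bex2 (0.90), Tram1l1 (0.89) and Arv1 (0.89), for Chgb Tubb5, Polr2m and Abt1 (0.92 each) and for Scg2 Stk24 (0.93), Eya1 (0.92) and Mast4 (0.91). For Scg3 they were Dnajb4 (0.92), Pcmt1 (0.90) and Bex3 (0.90), for Pcsk1 Lonp2 (0.91), Ttc38 (0.88) and Ncoa1 (0.88), and for Cpe Aldh16a1 (0.92), Gprc5c (0.90) and Cyb5b (0.89).

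Markers of other cell types were read beside the members. The 10 listed markers of noradrenergic and chromaffin cells, all measured, summed to 8211 to 10572 in BDNF knockout, 7686 to 8083 in BDNF wild type, 2834 to 3497 in NT4 knockout and 4519 to 4670 in NT4 wild type. The single markers were mixed: 7 were positive and 3 negative in BDNF knockout (median log2 change 0.12), and 4 positive and 6 negative in NT4 knockout (median -0.04). Th was at 0.69 in BDNF knockout and -0.51 in NT4 knockout, and Ddc was at 0.89 and 0.63. Slc6a2, the noradrenaline transporter gene, made up most of the sum in the BDNF line. Between the wild types this gene was at -1.43, NT4 minus BDNF (adjusted p = 6.67e-06, limma). On its brightest probe set, 1442449_at, the log2 change in NT4 knockout was -1.25 (SE 0.11, limma adjusted p = 0.0113). The other 3 Slc6a2 probe sets did not pass, with -1.36 on 1460129_at (adjusted p = 0.375, limma), -1.27 on 1421641_at (0.818) and 0.23 on 1447311_at (0.94). With the replicate number as a block, and with only the 6 arrays compared, 0 probe sets passed for NT4, Slc6a2 included. The same held without both arrays that stood apart in sex-linked genes. It also held in separate fits without NT4 knockout replicate 2 or 3, or NT4 wild-type replicate 1 or 2. Dbh, which makes noradrenaline, averaged 90.1, 81.7, 96.3 and 90.1 in the same order of groups. None of the 10 markers was at 0. The sum of the 8 macrophage markers, all measured, was 2719 to 3784 in BDNF knockout, 2267 to 2416 in BDNF wild type, 3326 to 4846 in NT4 knockout and 1609 to 2576 in NT4 wild type. The sums of both knockouts lay above those of their wild types. In each knockout 0 of the 8 passed, 7 were positive and 1 was negative, Cx3cr1 (-0.26 in BDNF knockout and -0.12 in NT4 knockout). In BDNF knockout Csf1r was at 1.38 on its brightest probe set, 0.97 on 1419873_s_at and -0.05 on 1423593_a_at, and Aif1 was at 0.07. The part of these markers in the members' values was not tested. The pan-neuronal sums overlapped in both lines, and 0 of the 13 genes passed in either knockout, with median log2 changes of -0.05 and -0.04.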

How the data were processed

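Expression was measured on 12 Affymetrix arrays, 3 for each of 4 groups taken from the sample labels. Per the labels' protocols, RNA was extracted with a column kit with DNase I treatment, amplified and biotinylated with a WT-Ovation kit. The table deposited by the authors holds linear intensities of 45101 probe sets on each array; how they were background-corrected and scaled was not stated in the sources used here. The authors' deposited lists hold mean intensities, a signed fold change (a score) and an unadjusted p-value, per the file headers; their 12 columns of single arrays were not used.

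Deposited intensities were turned to log2 without an offset and were not normalized further. After 64 control probe sets were left out, 45037 were fitted in R 4.3.3 by lmFit and eBayes of limma 3.58.1 (4 group means, 8 residual and 2.27 prior degrees of freedom). Tests were two-sided, with Benjamini-Hochberg adjustment over all probe sets of a contrast and a threshold of 0.05. Rose, fell and changed are used only past it. The script was tested on simulated data. The annotation gave 1 symbol for 34945 probe sets, several for 932 and none for 9160; 34741 of the first matched the GRCm38.p6 gene table. No 2 arrays shared more than 0.0444% of their values. Precision is limited by the number of arrays.

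The brightest probe set stood for a gene. Besides all members, the text names the listed genes past the threshold in a knockout and the 3 genes most alike to each member. Between the wild types it names the pathway and precursor genes past the threshold, but not all such markers. By lowest unadjusted p in each knockout it names the first 2 pathway genes and the first precursor. Other listed genes named were chosen for their role or after their values were seen. Members and lists were chosen with earlier results of these data known. Alternatives were quantile normalization, centring of arrays, a filter on dim probe sets (under the 25th percentile), an intensity trend, fits of the compared groups alone, a replicate block, each array left out in turn, both arrays that stood apart in sex-linked genes left out, the criteria of the deposited lists, and the mean over probe sets of a gene. The mean of both knockout effects and the contrast between lines were added after seeing the data.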

Additional observations from a re-analysis of the deposited data

Results flagged for a closer look

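The changes of Rph3al (1444409_at) had opposite signs in the BDNF and NT4 knockouts, with every BDNF knockout array above and every NT4 knockout array below the wild-type arrays of its line. The difference of the effects was 1.30 on the log2 scale (SE 0.27, unadjusted p = 0.000754), with an adjusted p of 0.521 (limma), so it did not pass over all probe sets. Over 18 alternatives it ranged from 1.12 to 1.58, with adjusted p from 0.467 to 0.85. The other Rph3al probe set gave a difference of 0.05 (adjusted p = 0.992, limma).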

How the results depend on the processing

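The count of member probe sets past the threshold was 0 in all 77 repeats of the 4 planned contrasts under an alternative. The pathway count for BDNF knockout against BDNF wild type was 1 (Scg5) as reported and 0 with centred arrays, with only the arrays compared, with the replicate block and without both arrays that stood apart in sex-linked genes; leaving out 1 array gave 0 to 1. Scg5 kept a log2 change of 1.29 to 1.44 throughout, with adjusted p from 0.00239 to 0.244, and 0.126 with the replicate block. For the difference of the effects the pathway count was 0 as reported and 1 with an intensity trend (Scg5, adjusted p = 0.0235, limma). Between the wild types it was 1 as reported, 2 with an intensity trend and 3 with only the arrays compared, and leaving out 1 array gave 1 to 2. Counts over all probe sets for BDNF were 8 as reported, 5 with centred arrays, 0 with only the arrays compared, 0 with the replicate block and 4 without both arrays; for NT4 they were 2, 1, 0, 0 and 0. Leaving out 1 array gave 4 to 10 for BDNF and 0 to 5 for NT4. For the difference of the effects they were 5 as reported, 3 with centred arrays, 0 with the replicate block and 1 without both arrays, with 1 to 4 when 1 array was left out. Between the wild types they were 6275 as reported and 4170 with dim probe sets left out. The cause of these shifts was not tested.

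The members' median for BDNF was -0.15 without BDNF wild-type replicate 2 and -0.16 with the mean over all probe sets of a gene, in which the dim Cpe probe set counts in full. For NT4, Vgf ranged from -0.50 to -0.23 on the log2 scale over 19 alternatives (adjusted p 0.759 to 1, limma). Its groups did not overlap in either line, so leaving out arrays could not turn its sign. Chgb, Scg2 and Cpe 1415949_at changed sign in the NT4 line under 5, 4 and 6 of 19. Replicate numbers did not pair the samples: same-numbered deviations correlated at 0.03, 0.05 and -0.06 in the BDNF line and -0.16, 0.10 and -0.05 in the NT4 line. The replicate block called 0 members in the 4 planned contrasts and ended the call of Pcsk1 between lines (adjusted p = 0.0665, limma). The number of arrays, 3 a group, limits the precision.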
